A study of Schizosaccharomyces pombe with 6 samples.

Results

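Small RNAs of fission yeast (Schizosaccharomyces pombe) kept for 7 days at 37 °C were compared with those of the same wild-type strain, spb75, grown at 30 °C. The comparison takes 3 of the 6 libraries of the series, 1 after 7 days at 37 °C and 2 at 30 °C, chosen by their strain, temperature and time labels, and covers all 11033 peaks of the shared peak list. The other libraries are wild-type spb75 after 8 hours at 37 °C, wild-type spb80 at 30 °C and strain spb309 at 30 °C, labelled dcr delta, a deletion of the Dicer gene. All strains were grown in YES, a rich medium, to an optical density of 0.5, and RNA of 18 to 28 nt was gel-purified and sequenced. The labels give no separate culture for the replicates at 30 °C, so p-values measure the spread between these samples, which may be technical. No size of single reads was analysed here, so a fragment of a longer RNA and a Dicer product of the same length cannot be told apart.

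In fission yeast, the dg and dh repeats around each centromere are transcribed, made double-stranded by an RNA-dependent RNA polymerase and cut by Dicer into small interfering RNAs (siRNAs). Argonaute carries these siRNAs back to the repeats, where they guide methylation of histone H3 at lysine 9 and the formation of heterochromatin. Related repeats near the telomeres and in the silent mating-type region are also packed into heterochromatin. Small RNA libraries also hold fragments of abundant RNAs such as tRNA, rRNA and mRNA. The series title sets Dicer beside Hsp104, a chaperone that dissolves protein aggregates, and the comparison described here asks how the small RNA population differs after long growth in heat.

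Reads over peaks came to 7025811 after 7 days at 37 °C and to 15723318 and 5790804 at 30 °C. The median peak held 19 reads after 7 days and 47 and 28 reads at 30 °C. Signal, the reads on a peak per unit of width, was made comparable across libraries by trimmed means of log ratios (TMM) and is given as normalised signal, about equal to normalised reads on a peak of mean width. Log2 ratios set 7 days at 37 °C over 30 °C on the scale of log2(normalised signal + 1), which understates the ratio of low peaks. Across the 8274 tested peaks, the log2 levels of the 7-day library had a Pearson's r of 0.860 and 0.871 with the replicates at 30 °C, which had 0.891 with each other. Peaks are not independent replicates, and these values describe the libraries. The peak list gives no strand (all 11033 peaks are listed as plus), and 5359 peaks (48.6%) lie over a gene on the strand opposite to the one they were assigned to, so such partners cannot be told apart.

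No single peak passed the test. By limma with Benjamini-Hochberg adjustment, 0 of 8274 peaks (0%) had an adjusted p below 0.05 in either direction, also with precision weights. The lowest adjusted p by limma with Benjamini-Hochberg adjustment was 0.0685. At an unadjusted p below 0.05 there were 283 peaks higher after 7 days (3.42%) and 495 lower (5.98%). With TMM factors computed without weights, an alternative added after seeing the data, limma called 36 peaks higher and 85 lower. The factors changed little, to 0.687 from 0.678 for the 7-day library. The prior degrees of freedom, the weight limma gives to the spread shared by all peaks, went from 15.5 to 62.2. Scaling by median of ratios, total reads or coding reads called 0 peaks, so the count of calls is not stable across settings of the fit. The 7-day library lay above both libraries at 30 °C for 2809 peaks (33.9%) and below both for 2991 (36.1%). It lay over 4-fold above both for 24 peaks (0.29%) and over 4-fold below both for 70 (0.846%). These shares are the background for the counts that follow. For a single value, 1 library against 2 cannot give a p below 0.333 in an exact permutation test, so levels, ranges and overlap carry the description.

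The make-up of the reads differed most in tRNA genes and in heterochromatic repeats. Peaks on tRNA genes held 58.6% of reads after 7 days at 37 °C (95% Wilson interval 58.57 to 58.65%, counting error only), against 39.1% and 31.9% at 30 °C. Pericentromeric repeats held 5.42% after 7 days, against 22.7% and 16.3% at 30 °C, a share 3.60 times lower than the mean at 30 °C. Subtelomeres, the outer 50000 bp of chromosomes I and II, held 0.0384% after 7 days, against 0.223% and 0.197% at 30 °C, 5.47 times lower. Each of these shares lay outside the range of the replicates at 30 °C. Wild-type spb80 at 30 °C lay with the replicates, at 33.6% for tRNA, 17.9% for pericentromeric repeats and 0.151% for subtelomeres.

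The remaining classes lay closer to the replicates. Peaks on rRNA genes held 23.95% of reads after 7 days, within the 23.5% and 28.0% at 30 °C. Protein-coding genes held 10.2%, against 12.4% and 21.0%, and long non-coding RNAs outside the repeats 1.04%, against 1.51% and 1.73%. The small nucleolar RNAs (snoRNA) held 0.161%, against 0.127% and 0.149%, and 0.178% in spb80. Shares add up to 100, so a larger tRNA share lowers the others. With tRNA and rRNA reads left out, the share of protein-coding genes over that at 30 °C was 1.37 in place of 0.613, that of pericentromeric repeats 0.613 in place of 0.278 and that of subtelomeres 0.404 in place of 0.183. The direction for coding genes thus depends on the denominator, while both kinds of repeat stayed below 30 °C.

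**Figure D1:**
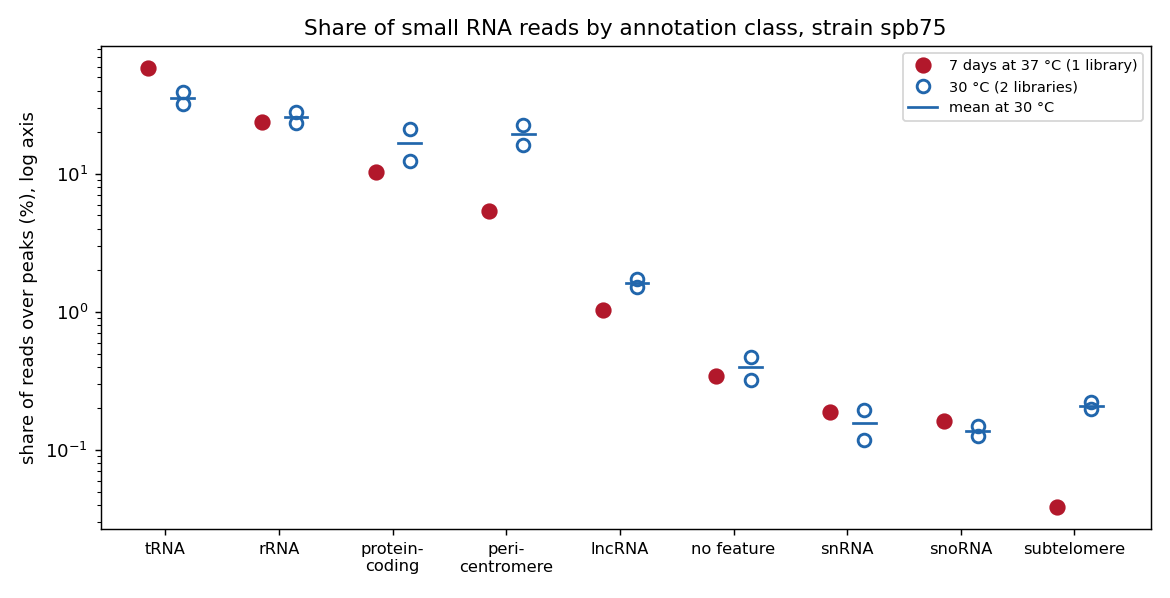
Share of reads over peaks (%, log axis) by annotation class for 7 days at 37 °C (filled, 1 library) and 30 °C (open, 2 libraries, bar at their mean). Pericentromeric repeats and subtelomeres lie below both replicates at 5.42% and 0.0384%, and tRNA lies above both at 58.6%.

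Small RNAs of the pericentromeric repeats were lower after 7 days at 37 °C at nearly every peak. Of 44 peaks in the centromere windows, tRNA and rRNA genes left out, 42 passed the filter on low signal, with 29 distinct profiles, because identical repeat copies share reads that match several places. Of these 42, 41 lay below both libraries at 30 °C and 1 above both, with a median log2 ratio of -2.0, against -0.01 over all peaks. At an unadjusted p below 0.05, 27 were lower, and 15 lay over 4-fold below both replicates. Scaling by total reads over peaks gave a median of -2.49 and put the median of all peaks at -0.50, and scaling by reads over coding peaks gave -1.82. The median was -2.02 on chromosome I, -1.64 on chromosome II and -2.0 on chromosome III. In these bulk samples, fewer cells that make an RNA and less of it per cell cannot be told apart.

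The peaks with the highest mean level were long stretches of the repeats. SPNCRNA.3679 (chromosome I, 3761774 to 3764218, ASM294v3), an annotated non-coding RNA there, had a normalised signal of 1367 after 7 days, against 4372 and 1696 at 30 °C, a log2 ratio of -0.99 (SE 0.80). SPNCRNA.7201 on chromosome III (1088524 to 1090018) had 840 after 7 days, against 4003 and 1520 at 30 °C, a log2 ratio of -1.55 (SE 0.78). In both peaks the 7-day library was lowest, and replicate 1 at 30 °C lay far above replicate 2.

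Ratios were further from 0 at shorter peaks of the repeats. The 18 annotated peaks longer than 1000 bp had log2 ratios of -2.04 to -0.97 with a median of -1.19, and the 22 of 1000 bp or less had -3.38 to -1.77 with a median of -2.88. This division was chosen after the values were seen, and it holds 16 and 11 distinct profiles. The 15 peaks over 4-fold below both replicates were all of the shorter kind. The matching copies IRC1-L (I, 3752846 to 3753828), an inverted repeat beside centromere I, and SPNCRNA.3688 (I, 3789279 to 3790261) each had a normalised signal of 70.9 after 7 days, against 1400 and 399 at 30 °C, a log2 ratio of -3.38 (SE 0.70, limma with Benjamini-Hochberg adjusted p = 0.104). The repeat copies on chromosomes II and III ran the same way. SPNCRNA.5256, SPNCRNA.7192 and SPNCRNA.7199 held 95.2 after 7 days, against 1478 and 456 at 30 °C, and 4 identical peaks starting at SPNCRNA.7213 held 94.9, against 1413 and 442. After 8 hours at 37 °C the log2 ratios over 30 °C were -0.49 to -0.07 for the long peaks and -0.91 to -0.39 for the shorter ones. The ratios at both times share the libraries at 30 °C.

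The peak in SPNCRNA.3675 (I:3755836-3756018, plus strand shown, ASM294v3) is shown as a short pericentromeric peak, with the peak in capitals and 10 bases of the genome on each side. It has 2 identical copies in the genome and a GC content of 32.8%. Its normalised signal was 55.8 after 7 days, against 962 and 280 at 30 °C, a log2 ratio of -3.19, and the dcr delta library held 2.06.
SPNCRNA.3675: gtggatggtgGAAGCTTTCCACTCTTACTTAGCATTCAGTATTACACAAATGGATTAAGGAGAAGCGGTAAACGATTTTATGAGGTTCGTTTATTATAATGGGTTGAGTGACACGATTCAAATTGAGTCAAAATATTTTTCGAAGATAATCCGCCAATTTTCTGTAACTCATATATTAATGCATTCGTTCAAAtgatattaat

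The single pericentromeric peak above both replicates, on no annotated feature (II, starting at 1598617), held 32.6 after 7 days, against 24.6 and 13.2 at 30 °C. It also differed from the rest in the dcr delta library, where it held 131 against 41.2 in spb80.

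Subtelomeric small RNAs were lower as well. Of 47 peaks, 44 passed the filter, with 37 distinct profiles, and of these 38 lay below both replicates and 3 above both, with a median log2 ratio of -1.80. At an unadjusted p below 0.05, 32 were lower and 1 higher, and 10 lay over 4-fold below both. Most of the peaks lie in the telomere-linked helicase genes tlh1 and tlh2 and in the non-coding RNAs SPNCRNA.2012, SPNCRNA.4507, SPNCRNA.4508 and SPNCRNA.6640. The tlh1 peak (I, 3120 to 3685, coding sequence) had a normalised signal of 113 after 7 days, against 479 and 274 at 30 °C, a log2 ratio of -1.67 (SE 0.59). SPNCRNA.4508 (I, 5573573 to 5573690) had 117 after 7 days, against 474 and 276, a log2 ratio of -1.62 (SE 0.59). Summed over its peaks, tlh2 had 110 after 7 days, against 792 and 355 at 30 °C. In all of these the groups did not overlap, and the 7-day library was lowest.

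The peak of SPNCRNA.6640 with the lowest log2 ratio among the peaks that it shares with SPNCRNA.4507 (II:4518272-4518311, plus strand shown, ASM294v3, 3 identical copies in the genome) is given with the peak in capitals. It held 31.0 after 7 days, against 273 and 165 at 30 °C, a log2 ratio of -2.73.
SPNCRNA.6640: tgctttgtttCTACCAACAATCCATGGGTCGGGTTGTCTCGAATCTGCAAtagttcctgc

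At 4 subtelomeric peaks the replicates at 30 °C disagreed. The peak on no feature at I, 7004 to 7131, held 3 reads after 7 days, against 1238 and 21 at 30 °C. The one at II, 4525417 to 4525548, held 3.5 reads after 7 days, against 1268.5 and 21 at 30 °C. Peaks in the pseudogenes SPAC212.09C and SPBCPT2R1.07C held 0 after 7 days, against a normalised signal of 82.5 and 1.61 at 30 °C in SPAC212.09C and 80.3 and 1.54 in SPBCPT2R1.07C. Their ratios, among the lowest of the series at -4.39 to -3.84, rest largely on replicate 1.

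**Figure D2:**
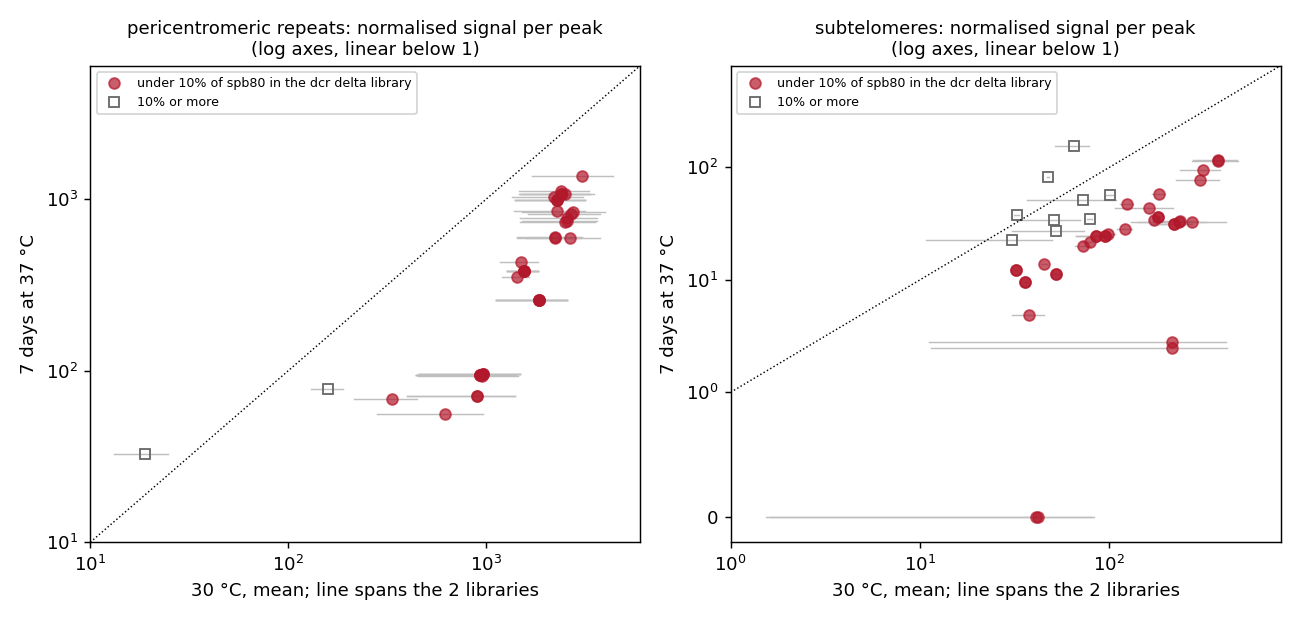
Normalised signal per peak after 7 days at 37 °C (vertical, log axis, linear below 1) against the mean at 30 °C (horizontal; lines span the 2 replicates) for 42 pericentromeric (left) and 44 subtelomeric (right) peaks; the dotted line marks equal signal. Filled points held under 10% of spb80 in the dcr delta library, and all but a few points lie below the dotted line.

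Dicer dependence was read from libraries outside the comparison, as a signal in dcr delta under 10% of that in spb80 where spb80 held at least 20. Of 79 tested peaks that met this, 76 lay below both replicates at 30 °C after 7 days and 0 above both, with a median log2 ratio of -1.90. They comprised 40 pericentromeric peaks, all 40 below both, 35 subtelomeric peaks, all 35 below both, and 4 elsewhere, of which 1 was below both. Of the 9 subtelomeric peaks kept in dcr delta, 3 lay below both, with a median of -0.31, and 6 of the 9 lie in SPAC750.01. The 4 elsewhere lie in sec74 (log2 ratio 0.17), in rpt6, a proteasome subunit gene (-2.43), and over the tRNA genes SPCTRNALYS.10 (-0.60) and SPCTRNALYS.11 (-0.93) of centromere III. These last peaks are 1772 and 2782 bp wide, far wider than a tRNA gene. The replicates at 30 °C stood far apart in both, at 2407 and 177 for SPCTRNALYS.10 and 2987 and 249 for SPCTRNALYS.11, with 432 and 452 after 7 days in between.

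In the window of the silent mating-type region on chromosome II, 20 of 25 peaks were tested, 11 lay below both replicates and 3 above, and the median was -0.64. The window also holds expressed genes, and its peaks lie in cms1, snR92, rpt6, SPBC23G7.14 and rpp202. All 4 of its peaks over 4-fold below both lie in rpt6, which summed to 284 after 7 days, against 533 and 732 at 30 °C. The peak with the highest mean, in the ribosomal protein gene rpp202, held 337 after 7 days, against 596 and 439.

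Genes of the RNAi and heterochromatin machinery did not lie apart from the replicates as groups. Of the RNAi genes, 14 were listed, 9 held a peak and 6 could be tested by gene, of which 3 lay above both replicates and 2 below. dcr1, which encodes Dicer, had a normalised signal of 57.1 after 7 days, against 18.2 and 27.0 at 30 °C, from 1 peak in its coding sequence (log2 ratio 1.33, SE 0.66, limma with Benjamini-Hochberg adjusted p = 0.612). A further 4 dcr1 peaks overlap spn6, a septin gene on the other strand, and were counted with it. Those summed to 57.8 after 7 days, against 31.7 and 31.1 at 30 °C. The dcr delta library held 115 reads on the first dcr1 peak, so these peaks do not check the deletion, and the labels do not give its extent. Of 17 listed genes of heterochromatin proteins, 11 held a peak and 7 could be tested, 2 above both replicates and 0 below. swi6, which encodes the heterochromatin protein HP1, had 82.7 after 7 days, between the 122 and 75.5 at 30 °C, and 460 after 8 hours.

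**Figure D3:**
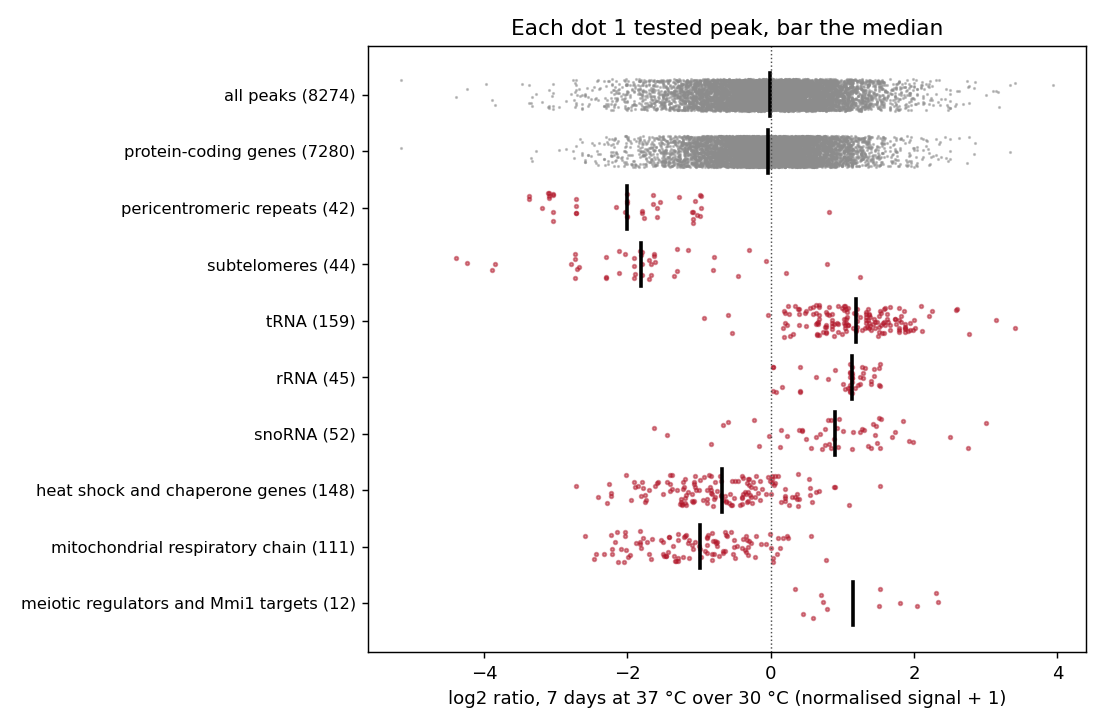
Log2 ratio of normalised signal, 7 days at 37 °C over 30 °C, for each tested peak (dots) by annotation class or gene list, with the number of peaks in brackets and the median as a bar. The medians are -2.0 for pericentromeric repeats, -1.80 for subtelomeres and 1.19 for tRNA, against -0.01 for all peaks.

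Fragments of tRNA genes were higher after 7 days at nearly every peak. All 159 tRNA peaks were tested, 128 lay above both replicates at 30 °C and 1 below both, and the median log2 ratio was 1.19, or 0.70 when scaled by total reads. At an unadjusted p below 0.05, 22 were higher and 0 lower. The median was 1.30 for 116 peaks on the chromosome arms and 0.86 for 43 within the centromere windows. Where the tRNA share was largest, after 8 hours at 37 °C (67.7%), the median over 30 °C was 1.78.

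The difference was uneven between amino acids and, within an amino acid, between genes of different sequence. Peaks were grouped into 69 families by annotated amino acid and identical gene sequence, whose members share their reads. Families of similar sequence can share short reads as well, so counts of families are not counts of independent observations. The families of SPCTRNAASP.05, annotated as tRNA-Asn, and SPATRNAASP.01, annotated as tRNA-Asp, have the same sequence, so there are 68 distinct sequences. The median was above 0 in 68 families, all peaks were over 2-fold above 30 °C in 48, and 8 had a peak between the replicates. tRNA-Thr took 5.96% of reads after 7 days, against 1.82% and 2.81% at 30 °C, and its 10 peaks had log2 ratios of 1.54 to 2.21. tRNA-Ala took 0.601%, against 0.186% and 0.158%. tRNA-Glu took 11.3%, against 7.30% and 4.62%. At the low end, the 13 peaks of tRNA-Val had ratios of -0.04 to 1.03, and tRNA-Trp took 0.0852% of reads, between the 0.149% and 0.0561% at 30 °C.

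The 5 families of tRNA-Gly differ at 29 of their 71 positions and are shown because their ratios differed by sequence. The 4 genes with a sequence of their own had log2 ratios of 2.25 to 2.77, each above both replicates. They are not 4 separate observations, because short reads can match several of them. SPBTRNAGLY.05 and SPCTRNAGLY.12, nearly the same in sequence, held 87949 and 90299 reads after 7 days, against 47969 and 49336 in replicate 1 at 30 °C. The family of SPATRNAGLY.01, with 8 identical genes, had 0.72 to 0.77 at its 7 peaks, each between the replicates. The genes are written 5′ to 3′ on their own strand (RefSeq, ASM294v3), with capitals at positions that differ among the 5 families, from the highest ratio to the lowest.
SPBTRNAGLY.09: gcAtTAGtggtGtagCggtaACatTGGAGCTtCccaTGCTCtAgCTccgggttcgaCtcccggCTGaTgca
SPBTRNAGLY.05: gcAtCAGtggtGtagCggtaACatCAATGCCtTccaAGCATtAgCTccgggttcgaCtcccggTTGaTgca
SPCTRNAGLY.12: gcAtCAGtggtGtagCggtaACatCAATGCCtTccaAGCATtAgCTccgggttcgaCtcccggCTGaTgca
SPBTRNAGLY.04: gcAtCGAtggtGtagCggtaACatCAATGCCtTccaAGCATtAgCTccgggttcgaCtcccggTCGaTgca
SPATRNAGLY.01: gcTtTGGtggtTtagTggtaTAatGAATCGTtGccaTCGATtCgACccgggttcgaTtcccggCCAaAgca
At SPBTRNAGLY.09 (II, 2069487 to 2069557) the normalised signal was 124684 after 7 days, against 22760 and 14679 at 30 °C, more than 4-fold above both.

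The families of tRNA-Glu, which differ at 13 of 72 positions, parted in the same way. The family of SPATRNAGLU.01, with 4 genes, had a median log2 ratio of 1.79, and that of SPATRNAGLU.03, with 6 genes, had 0.67 with each peak between the replicates. The SPATRNAGLU.02 peak, the tRNA peak with the highest mean level, held 179244 after 7 days, against 79120 and 33918 at 30 °C (log2 ratio 1.79, SE 1.62). Capitals mark the positions at which the pair differs.
SPATRNAGLU.01: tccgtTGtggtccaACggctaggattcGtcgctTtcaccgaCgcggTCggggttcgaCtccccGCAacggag
SPATRNAGLU.03: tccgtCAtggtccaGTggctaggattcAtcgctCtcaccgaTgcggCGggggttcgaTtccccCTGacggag

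The highest tRNA ratio was that of SPATRNAILE.02 (I:2578417-2578527, plus strand), a single gene whose sequence is printed in capitals with the bases of the peak on each side in lower case. It held 8703 after 7 days, against 453 and 1474 at 30 °C, a log2 ratio of 3.41 (SE 0.81), where the other 8 tRNA-Ile peaks had 0.40 to 0.65.
SPATRNAILE.02: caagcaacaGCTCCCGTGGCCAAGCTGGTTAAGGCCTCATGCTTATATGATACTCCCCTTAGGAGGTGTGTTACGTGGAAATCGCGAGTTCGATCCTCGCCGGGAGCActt
A single-copy gene also stood apart in tRNA-Ala, where SPATRNAALA.06 held 30873 after 7 days, against 4230 and 2883, a log2 ratio of 3.14 (SE 0.95), and the other families 0.99 to 1.51.

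**Figure D4:**
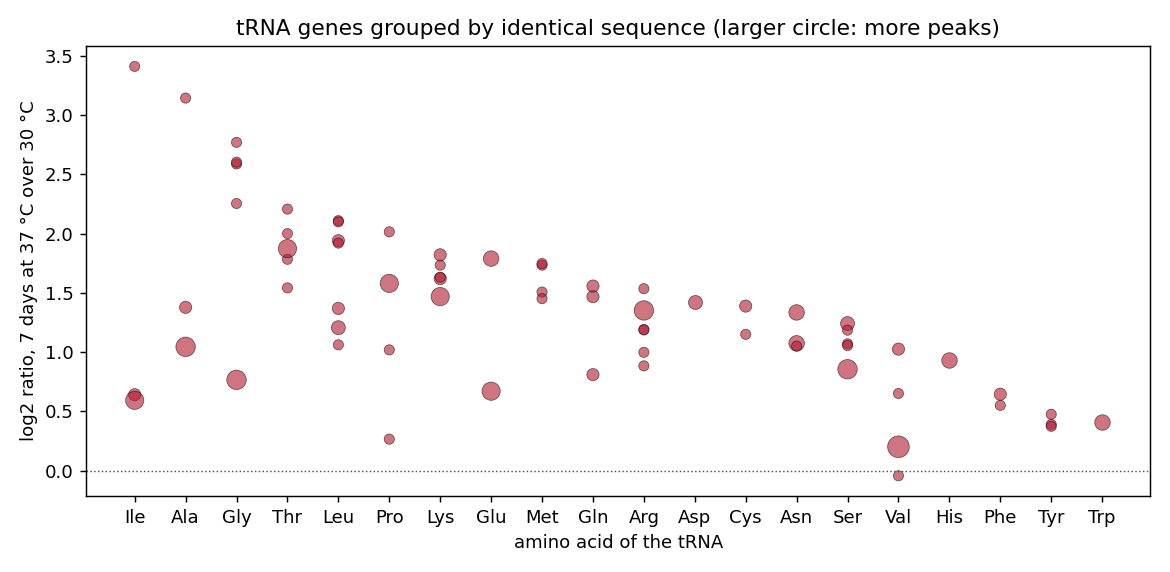
Median log2 ratio, 7 days at 37 °C over 30 °C, of 69 families of tRNA genes with the same annotated amino acid and identical sequence, by amino acid; larger circles hold more peaks. SPATRNAILE.02 (3.41), SPATRNAALA.06 (3.14) and the 4 single tRNA-Gly genes (2.25 to 2.77) stand above the other families of their amino acid.

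Other structural RNAs leaned the same way in part. All 45 rRNA peaks were tested, 38 lay above both replicates and 0 below both, but 0 passed an unadjusted p below 0.05. The median was 1.13 for 37 peaks on 5S genes, 0.41 for 5 on 18S genes and 0.04 for 3 on 28S genes, and the 18S and 28S medians turned negative under total-read scaling (-0.08 and -0.45). The 5S median was 2.09 without replicate 1 at 30 °C and 0.27 without replicate 2. The replicates were far apart here, as at SPRRNA.06, a 5S gene, with 18703 after 7 days, against 15711 and 4615.

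Of the small nuclear RNAs (snRNA), which form the spliceosome, 4 of 6 lay above both replicates and 2 below. U1 RNA (snu1) had a normalised signal of 2986 after 7 days, against 525 and 477 at 30 °C, a log2 ratio of 2.57 (SE 0.65). U5 RNA (snu5) had 1724, against 237 and 410, U4 RNA (snu4) 550, against 87.6 and 188, and U2 RNA (snu2) 1961, against 810 and 823. U6 RNA (snu6) ran the other way, at 1172 after 7 days, against 2932 and 2695. The peaks of snu1, snu4 and snu5 also overlap a non-coding RNA on the other strand, which the unstranded peak list cannot part from them.

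For the snoRNAs, which guide modification and cutting of ribosomal RNA, 29 of 37 genes lay above both replicates and 4 below, with a median of 0.95, against 1327 of 3384 genes and unannotated peaks (39.2%) above both and 1113 (32.9%) below both. At an unadjusted p below 0.05, 13 were higher and 1 lower. The box H/ACA RNA sno20 had 499.8 after 7 days, against 95.4 and 51.6 at 30 °C, and snoU14 had 531, against 158 and 159. The 2 sno20 peaks also lie over a gene on the other strand. The exception with the lowest ratio was snoR69b, with 322 after 7 days, against 1176 and 845. In spb80 at 30 °C, sno20 had 131 and snoU14 166, also below the 7-day library. Other members lay below spb80. By peak, 38 of 52 lay above both replicates, and 24 lay above all 3 wild-type libraries at 30 °C. The leading snoRNA peak, in snu32, held 1851 after 7 days, against 2706 in spb80.

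Signal on nuclear genes of the mitochondrial respiratory chain and ATP synthase was lower after 7 days. Of 34 listed genes, 31 held a peak and 30 were tested by gene, and 28 of these lay below both replicates and 0 above both, against the background of 32.9% and 39.2%. The median log2 ratio was -0.85, and 13 had an unadjusted p below 0.05. By peak, 93 of 111 lay below both and 3 above both, 90 also below spb80, and the median was -0.98, -1.46 under total-read scaling and -0.81 under coding-read scaling. After 8 hours at 37 °C the level was above that after 7 days in 30 of 30 genes.

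The ATP synthase beta subunit gene atp2 (6 peaks, chromosome I) had a summed normalised signal of 498 after 7 days, against 2077 and 2454 at 30 °C, 2795 in spb80 and 1016 after 8 hours. Its log2 ratio was -2.18 (SE 0.39, limma with Benjamini-Hochberg adjusted p = 0.332), and all 6 peaks lay below both replicates. qcr1, a subunit of the cytochrome bc1 complex and of the protease that trims imported proteins, had 306 after 7 days, against 1323 and 1242. cyt1, which encodes cytochrome c1, had 261, against 783 and 730, and sdh1, a succinate dehydrogenase subunit gene, 644, against 1806 and 1345. Each of these lay 2.45 to 4.55 times lower than the mean at 30 °C. In qcr1, 6 of 8 peaks also lie over a gene on the other strand, and in cyt1 8 of 9, against 48.6% of all peaks. In atp2, 0 of 6 do. Members closest to the replicates were cox13 (-0.25) and atp7 (-0.26), and cyc1, the cytochrome c gene, had 900.2, against 1101 and 1397.

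Chaperone genes, whose mRNAs heat shock is known to raise, also lay below 30 °C. Of 41 listed genes, 38 were matched, 33 held a peak and 32 were tested by gene. Of these, 23 lay below both replicates and 3 above both, against the background of 32.9% and 39.2%. The median was -0.66, and 7 had an unadjusted p below 0.05, all lower. By peak, 95 of 148 lay below both and 17 above both (median -0.68, or -1.16 under total-read scaling and -0.49 under coding-read scaling).

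Among the Hsp70 and Hsp60 families, ssa2 had 258 after 7 days, against 831 and 1480 at 30 °C (log2 ratio -2.10, SE 0.46), and mcp60, a mitochondrial chaperonin gene, 183, against 742 and 696. hsp90 had 231, against 666 and 905. The mitochondrial Hsp70 gene ssc1 had 1630, against 3984 and 3510, and the p23 co-chaperone gene wos2 376, against 706 and 885. The members above both replicates, hsp9, cct8 and erj5, had log2 ratios of 0.07, 0.10 and 0.24.

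hsp104, the chaperone of the series title, had 111 after 7 days, against 178 and 432 at 30 °C (log2 ratio -1.32, SE 0.58, limma with Benjamini-Hochberg adjusted p = 0.563), and 1066 after 8 hours. The 7-day value lay below both replicates, which stood far apart from each other. Its peak with the lowest ratio (II:3612853-3612918, coding sequence, minus strand shown, ASM294v3) held 7.93 after 7 days, against 53.5 and 62.6 at 30 °C and 111 after 8 hours. Wild-type spb80 at 30 °C held 17.8 there, closer to the 7-day library than the replicates were. The peak passed the filter on low signal only through the libraries at 30 °C, and is given in capitals.
hsp104: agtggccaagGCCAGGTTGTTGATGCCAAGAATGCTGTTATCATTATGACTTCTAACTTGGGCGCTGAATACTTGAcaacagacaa

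**Figure D5:**
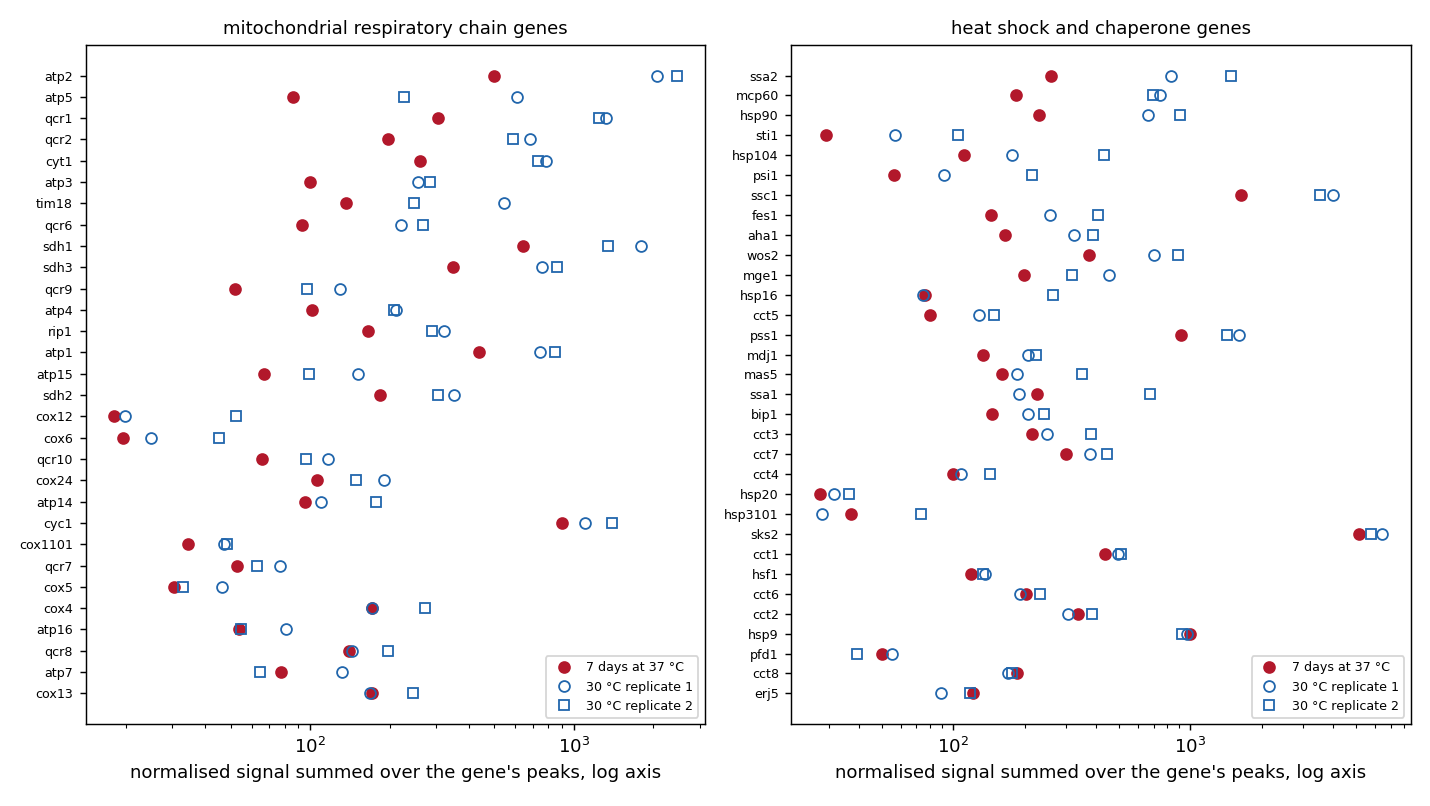
Normalised signal summed over the peaks of each gene (log axis) after 7 days at 37 °C (filled) and in the 2 libraries at 30 °C (open), for respiratory chain genes (left) and chaperone genes (right), ordered by log2 ratio from the lowest at the top. The filled point lies left of both open points in 28 of 30 respiratory genes and in 23 of 32 chaperone genes.

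Genes of meiosis and sexual differentiation lay above 30 °C, with few members measured. Of 18 listed regulators and targets of Mmi1, a protein that marks meiotic mRNAs for destruction, 7 held a peak, and all 5 tested by gene lay above both replicates. By peak, 11 of 12 lay above both, with a median of 1.15, and 11 lay also above spb80. The median was 0.31 under total-read scaling and 1.32 under coding-read scaling. It was 0.81 with no filter on low signal and 1.93 with the lowest 50% of peaks dropped in place of 25%. ste11, which encodes the transcription factor that starts sexual differentiation, had 614 after 7 days, against 199 and 143 at 30 °C, 304 in spb80 and 230 after 8 hours (log2 ratio 1.86, SE 0.38). mmi1 itself had 157, against 122 and 85.3, and mei4, a meiotic transcription factor gene, 54.4, against 35.6 and 27.3. Of a wider list of genes named for meiotic expression (mug and meu), put together after values were seen, 11 of 23 lay above both replicates and 4 below. By gene, the background was 39.2% above both and 32.9% below both. The wider list was not far from that share above both, and is no support.

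mug14 had the highest ratio of the coding peaks and is shown for that. Summed over 4 peaks it had 446 after 7 days, against 62.7 and 64.7 at 30 °C, 21.9 in spb80 and 271 after 8 hours (log2 ratio 2.79, SE 0.36, limma with Benjamini-Hochberg adjusted p = 0.332). The 4 peaks also overlap a non-coding RNA on the other strand. The leading peak (II:128860-128895, coding sequence, plus strand shown, ASM294v3) held 61 reads after 7 days, against 15 and 8 at 30 °C, with a log2 ratio of 3.33 (SE 0.58). It passed the filter on low signal only through the 7-day library, as did the mug14 peaks starting at 128808 and 128927. Their ratios are therefore no support.
mug14: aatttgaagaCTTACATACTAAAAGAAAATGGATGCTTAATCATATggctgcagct

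Other gene lists had medians nearer 0. The 533 tested peaks of ribosomal protein genes had a median of 0.01, with 129 above both replicates and 171 below, and the elongation factor genes had 0.06. By gene, 61 of 128 ribosomal protein genes lay below both replicates and 21 above both, against the background of 32.9% and 39.2%. Of these genes, 0 had an unadjusted p below 0.05. The ribosomal protein peak with the highest mean, in rps2501, held 1100 after 7 days, below the 4514 and 2067 at 30 °C. The next, in rpl2101, held 1808, between the 4167 and 1519 at 30 °C. A leading elongation factor peak, in tef102, lay nearer the replicates, with 1378 after 7 days, against 1061 and 1241. Stress response genes had a median of -0.05, with 11 of 30 genes above both and 9 below. Among them zym1, a metallothionein gene, had 411, against 182 and 260, and ctt1, the catalase gene, 824, against 1672 and 1570. Glycolysis and fermentation genes had a median of -0.22 by peak and -0.37 by gene, with 13 of 19 genes below both and 3 above. Against the same background, this count leaned the way that of the chaperone genes did. tdh1, a leading glycolytic gene, had 6858 after 7 days, against 7985 and 8694. The alternative enolase gene eno102 stood above, at 325 after 7 days, against 90.0 and 136 at 30 °C, and at 1859 after 8 hours. Its 5 peaks also lie over a gene on the other strand.

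Transport genes had a median of 0.04, with members on both sides of the replicates. The ferric reductase gene frp1 had 125 after 7 days, against 33.5 and 23.3 at 30 °C, and the siderophore transporter gene str1 142, against 39.9 and 49.6. However, spb80 at 30 °C had 118 for frp1 and 120 for str1, so the 7-day values lay above all 3 wild-type libraries at 30 °C, with spb80 the nearest. The acid phosphatase gene pho1 had 71.8, against 205 and 282, and the invertase gene inv1 367, against 625 and 953. At the inv1 peaks starting at 1724168, 1725286 and 1725938, spb80 held 25.0, 17.6 and 9.79, against 28.8, 15.7 and 38.4 after 7 days. The 7-day library thus lay above spb80 at the peaks starting at 1724168 and 1725938, and below it at the one starting at 1725286. Cell wall genes had a median of 0.36, with bgs1 and bgs4, glucan synthase genes, at 0.63 and 0.59 by gene, and the median turned to -0.13 under total-read scaling. Housekeeping genes had a median of -0.14, where act1, the actin gene, had a leading peak with 567 after 7 days, against 2461 and 562.

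Of the 24 peaks over 4-fold above both replicates, 7 lay on coding genes, 6 on tRNA, 4 on other non-coding RNA, 3 on snoRNA, 2 on snRNA and 2 on no feature. Of the 70 over 4-fold below, 40 lay on coding genes, 15 on pericentromeric repeats, 10 in subtelomeres, 3 on other non-coding RNA and 2 on no feature. The 10 highest ratios were SPNCRNA.1606 (3.94), SPATRNAILE.02, mug14, a peak on no feature at II, 1947899 to 1947951 (3.18), SPNCRNA.3016 (3.17), SPATRNAALA.06, SPNCRNA.3054 (3.10), sno20 (3.0), SPBC24C6.03, a prolyl-tRNA ligase gene (2.85), and gpd3 (2.84). The SPNCRNA.1606, SPNCRNA.3016, SPNCRNA.3054, mug14, sno20 and SPBC24C6.03 peaks passed the filter on low signal only through the 7-day library. They thus had to be higher, and their ratios are no support. The same holds for other peaks of the 24, such as that of pof11, with 105 after 7 days, against 15.1 and 17.0 at 30 °C. At SPNCRNA.1606 (II, 3493620 to 3493656) there were 70 reads after 7 days, against 13 and 5 at 30 °C. The SPBC24C6.03 peak held 131 after 7 days, against 18.5 and 16.2 at 30 °C, and 299 after 8 hours.

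The 10 lowest, repeats and subtelomeric peaks apart, were in wis2, SPBPB21E7.08, nam3, mfs3, SPNCRNA.3327 and rpt6. The largest of these was in wis2, a cyclophilin gene of the Hsp90 system (I, 4930187 to 4930239, coding sequence), with 0 reads after 7 days, against 34 and 33 at 30 °C, at least 5.69 times lower with a count of 0 taken as 3 reads in the 7-day library. Summed over its 6 peaks, wis2 had 117 after 7 days, against 510 and 564 at 30 °C, and 873 after 8 hours. All 6 wis2 peaks also lie over a gene on the other strand. At the pseudogene SPBPB21E7.08 there was 1 read after 7 days, against 54 and 28, a signal 20.9 times lower (95% interval 3.65 to 836, counting error only). At nam3, a non-coding RNA, there were 2 reads, against 79 and 31. At SPNCRNA.3327 the replicates disagreed, with 0 reads after 7 days, against 119 and 0. Coding genes with several peaks over 4-fold below included dld1, a dihydrolipoamide dehydrogenase gene, with 276 after 7 days, against 1555 and 1267. Another was gut2, a mitochondrial glycerol-3-phosphate dehydrogenase gene, with 252, against 557 and 1070. However, its peaks over 4-fold below held 27.5 and 45.0 after 7 days, near the 35.6 and 43.05 of wild-type spb80 at 30 °C.

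Peaks of coding genes with an unadjusted p below 0.05 were described by level, position and base composition, with no test. Signal at 30 °C enters both the ratio that picked these peaks and the filter. A higher signal at 30 °C in the lower set is therefore in part built in. The median signal at 30 °C was 94.6 for the 413 lower ones and 36.4 for the 199 higher ones, against 54.6 for all. Of the 413 lower ones, 75.3% lay in coding sequence, against 65.5% of the 7280 tested coding-gene peaks, with a median GC content of 38.7%, against 39.3%. Of the 199 higher ones, 43.7% lay in UTRs, against 34.1%, with a median GC content of 41.4%. Across the 7280 peaks, log2 ratios had a Pearson's r of 0.10 with GC content and -0.13 with mean level, both weak. The part of base composition and level in the ratios was not tested.

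The 7-day library was also set against the 8-hour library by limma with Benjamini-Hochberg adjustment, to find where long and short heat differ. Of 8274 peaks, 4 were higher after 7 days (0.0483%) and 21 lower (0.254%), with the spread again taken from the replicates at 30 °C. Chaperone genes were prominent among the lower ones, with 3 peaks in hsp104, 2 in fes1, a nucleotide exchange factor gene of Hsp70, and 1 each in sti1, an Hsp70 and Hsp90 co-chaperone gene, and psi1, a DnaJ family gene. A peak in fes1 (II, 3991174 to 3991221, coding sequence) had a normalised signal of 19.6 after 7 days, against 501 after 8 hours, a log2 ratio of -4.60 (SE 0.63, limma with Benjamini-Hochberg adjusted p = 0.00714), and 29.6 and 46.7 at 30 °C. The other fes1 peak (II, 3991324 to 3991381) held 3.61 after 7 days, against 328 after 8 hours. That peak and the sec18 peak passed the filter on low signal only through the 8-hour library, so their calls are no support. The swi6 peak (I, 1703908 to 1703946, coding sequence) held 29.5 after 7 days, against 428 after 8 hours, a log2 ratio of -3.81 (SE 0.62), and lay at 28.7 and 32.3 at 30 °C. The invertase gene inv1 had 3 lower peaks, with log2 ratios of -3.52 to -3.32, and the others lay in sec18, mdh1, wis2, caa1, nup40, SPAC2F3.05C, SPBC1E8.02, SPCC1393.12 and the non-coding RNAs SPNCRNA.6302 and SPNCRNA.4039.

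The 4 higher peaks lay in vht1, a biotin transporter gene, in the neighbouring SPAC1B3.15C and SPNCRNA.4230, and in SPBC1271.10C. The vht1 peak (I, 4959647 to 4959676, coding sequence) held 119 after 7 days, against 2.90 after 8 hours, a log2 ratio of 4.94 (SE 0.69), and 118 and 278 at 30 °C. Both heat libraries share the controls at 30 °C, so their ratios over 30 °C are not independent. The count of these calls depends on the settings, and limma on sums per gene called 0 of 3384 genes (68 higher and 248 lower at an unadjusted p below 0.05).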

How the data were processed

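Small RNA was sequenced from 6 libraries. Per the submitters' processing notes, the tools were CASAVA 1.8, Bowtie 0.9.9.1 and MACS; what is not given in the sources used here comprises their settings, the build and the samples behind the peak calls. The signal values deposited by the authors are reads on a peak, scaled by mean over peak width (mean 71.0 bp). They carry no added constant in the spb75 columns and one of 8 in the spb80 and dcr delta columns, which was removed. Reads were recovered from width, and 88.7% of values after 7 days and 92.4% and 86.8% at 30 °C were whole within 0.01. Reads that match several places are split into fractions, so no count model was used.

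Peaks were assigned to genes of ASM294v3 (RefSeq) by an overlap of at least 1 bp. Of the tRNA, snoRNA and snRNA genes, 212 of 243 held a peak at these positions. Libraries were scaled with TMM factors over the 6 libraries (30% trimmed from log ratios, 5% from levels). Peaks in the lowest 25% by mean signal were left out, leaving 8274 of 11033. Limma 3.58.1 (R 4.3.3) with a trend was fitted to log2(normalised signal + 1) with Benjamini-Hochberg adjustment at 0.05. The residual spread came from the 2 replicates at 30 °C (1 degree of freedom), so the single 7-day library is assumed to vary like them. Tables used Python 3.11.15, pandas 2.3.3 and scipy 1.17.1. The procedure was run on simulated data with equal numbers of peaks raised and lowered. Those data held no shift in the make-up of the reads like that between these libraries, so the run does not cover it.

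Members and gene lists were chosen with earlier results of these data known. Named peaks are the 10 highest and 10 lowest ratios, merged within a feature or 1000 bp, the 2 highest-mean peaks of each list, dcr1, hsp104 and swi6, and up to 5 peaks called between 7 days and 8 hours; other members were named from the lists after their values were seen. Intervals cover counting error only, because PCR reads without molecular identifiers are not independent molecules. Alternatives were other scalings, pseudocounts, filters, trend and weight settings, summing per gene, identical peaks counted once, and other libraries at 30 °C.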

Additional observations from a re-analysis of the deposited data

Results flagged for a closer look

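The log2 ratio differed between 7 days and 8 hours at 37 °C at 4 peaks that were higher after 7 days and 21 that were lower, by limma with Benjamini-Hochberg adjustment, the test being of that difference itself. The 5 genes with the largest differences are given, each by 1 peak. The difference, 7 days minus 8 hours, was -6.16 in fes1, -4.60 in sec18 and -4.40 in hsp104, and 4.94 in vht1 and 4.22 in SPAC1B3.15C. After 7 days sec18, a gene of vesicle fusion, held 1 read, against 40 after 8 hours. The sec18 peak and the fes1 peak passed the filter on low signal only through the 8-hour library, where they are high, so their tests are no support. The vht1 and SPAC1B3.15C peaks held 1 and 3 reads in the 8-hour library. Each condition is 1 library, and the spread behind the test comes from the replicates at 30 °C.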

How the results depend on the processing

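Of 1172 alternative values over 71 named peaks, 1055 kept direction and side of the threshold, 35 lost and 25 gained a p below it, 24 moved and 33 changed sign; the cause was not tested. For 7 days against 30 °C, calls became 1 higher with a pseudocount of 10, 36 higher and 85 lower with unweighted TMM (chosen after seeing the data), 1 lower without the trend, and 1 higher and 23 lower without replicate 2 with spb80 added; without replicate 1 with spb80 added they were 0 and 0.
For 7 days against 8 hours, 4 higher and 21 lower became 0 and 0 with precision weights, with no filter, with the lowest 50% dropped (fewer peaks tested) and per gene, 0 and 1 without the trend, 1 and 3 with median-of-ratios and coding-read scaling, 1 and 0 with total reads, 2 and 29 with a pseudocount of 10, and 25 and 119 with unweighted TMM.
Share ratios over 30 °C without rRNA and tRNA reads were 0.613 for pericentromeric repeats, 0.404 for subtelomeres and 1.37 for coding genes; subtelomeres had 0.202 over all 3 wild-type libraries. Leaving out a replicate gave 1.499 to 1.84 for tRNA, 0.855 to 1.02 for rRNA, 0.238 to 0.333 for pericentromeric repeats, 0.172 to 0.194 for subtelomeres and 0.487 to 0.828 for coding genes.
Signs changed under total reads for tef102 (-0.22), tef101 (-0.42), epe1 (-0.32), pil1 (-0.29), mac1 (-0.00176) and cms1 (-0.21), under coding reads for the unannotated peak at III 2530 (0.12) and SPATRNAVAL.01 (0.14), per gene for cid12 (0.33), and over all 3 wild-type libraries for pil1 (-0.15). Without replicate 1 with spb80 added they did for sks2 (0.13), trr1 (0.28), tef101 (-0.064), pil1 (-0.13), act1 (0.42), rpl2101 (0.28) and SPATRNAVAL.01 (0.15), and without replicate 2 with spb80 added for gst2 (0.27), pil1 (-0.52) and snu32 (-0.13). With only 1 replicate at 30 °C kept, the log2 ratio spanned -0.56 to 0.073 for sks2, -0.00882 to 0.14 for tef101, -0.082 to 0.42 for epe1, -0.19 to 0.58 for pil1, -0.75 to 1.72 for mac1, -2.12 to 0.0128 for act1, -0.15 to 0.70 for cms1, -0.28 to 2.06 for SPRRNA.18, -1.20 to 0.25 for rpl2101, -0.51 to 0.39 for the peak at III 2530, -1.23 to 1.15 for SPATRNAVAL.01, -1.22 to 0.00954 for vht1 and -0.22 to 1.93 for SPAC1B3.15C.
No paired analysis was possible because the 7-day condition has 1 library and carries no replicate number. A median of 19 reads per peak after 7 days limits the precision of single peaks.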
